A study of Mus musculus with 8 samples.

Results

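The input bone marrow library of this mouse RNA-seq series was compared with the libraries of 7 sorted populations, clusters 1 to 7. All 8 libraries of the series entered, with 1 library for each population. A gene was described as above or below when it had 50 or more counts in the input and its log2(RPKM + 1) lay above, or below, that of all 7 sorted libraries. RPKM is the count of a gene divided by its exon length in kilobases and by the library total, on the usual per-million scale. Of 49315 genes listed, 18973 had 50 or more counts in the input, of which 11324 (59.7%) lay above all 7 sorted libraries, 1012 (5.33%) lay below all 7 and 6637 lay within their range.

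The study asked which subpopulations make up the mesenchymal stem cells of the bone marrow. All 8 libraries were labelled as wild type C57BL/6J bone marrow of mice at postnatal age 6 weeks, with no further allele or treatment. The sorted populations were negative for CD31, CD45 and Ter119, markers of endothelial cells, leukocytes and erythroid cells. The paper defined these populations by single-cell RNA-seq within the fraction of such cells that was positive for Sca-1 and PDGFR-α. Its methods for the sort also list antibodies to Sca-1 and PDGFR-α, which Pdgfra encodes. For the separation of the populations the paper names CD24, CD39, CD54, Sca-1 and Ly-6C, and it names CD121b among the surface marker genes it examined. The input carried the cell type label of a stromal cell like the others, and whether it was sorted and how many animals gave each library were not given in the sources used here. The labels describe RNA of crushed marrow for all 8 libraries, whereas the methods of the study describe a smaller amount of RNA from collected cells without naming the input, so that the RNA amount and cell number of the input are uncertain.

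Bone marrow holds the blood-forming lineages together with a small share of stromal cells. Granulocytes, monocytes, B cells and erythroid cells arise there from haematopoietic stem cells, and the stroma includes bone-lining osteoblasts, fibroblasts, adipocyte precursors and CXCL12-abundant reticular cells. Removal of leukocytes, erythroid cells and endothelium by a sort therefore leaves mostly cells that make collagen and other matrix.

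The total count was 20162876 in the input and ranged from 12833648 in cluster 5 to 33238133 in cluster 7. After Lars2, mmu-mir-689-2, the Rn18s-rs5 locus and haemoglobin genes were dropped, which removed 0.240% of the input counts and 0.836% to 40.04% of the sorted counts, 20114447 counts remained in the input and 7695179 to 32960396 in the sorted libraries. With 1 library against 7, an exact permutation test cannot go below a one-sided p of 0.125, so no test was made and each difference has no replicate check. Intervals are 95% exact binomial intervals of the ratio of counts to the nearest sorted library. They cover counting error only, and copies made by PCR were not separated.

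The input held the most abundant RNA of both compartments. The 5 genes with the highest counts were Dcn, a matrix proteoglycan of fibroblasts, with 1.67% of the counts, Sparc, a bone matrix glycoprotein, with 1.35%, Ngp, a neutrophil granule protein, with 1.33%, Gsn, which severs actin filaments, with 1.22%, and Col1a2, a chain of type I collagen, with 1.05%. Dcn and Ngp lay above all 7 sorted libraries, Sparc and Col1a2 lay below all 7, and Gsn lay between them. Lyz2, the lysozyme of macrophages and neutrophils, held 0.730% of the input counts against a median of 0.189% in the sorted libraries. Across 19469 genes with RPKM above 2 in at least 1 library, Pearson's r of log2(RPKM + 1) with the input was highest for cluster 7 (0.789) and lowest for cluster 2 (0.722). Cluster 7 was also the nearest library below the input for most of the leukocyte genes named here.

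The number of genes called depended on how the libraries were scaled. With the total of the remaining genes, 59.7% of the tested genes lay above all 7 sorted libraries and 5.33% lay below all 7, so that 91.8% of the calls were above. The median tested gene was 0.65 higher on the log2 scale in the input than in the median sorted library. With edgeR's TMM factors, which take most genes as unchanged, this median was 0.10, and 7155 genes lay above and 4605 below, so that 60.8% of the calls were above. With DESeq2 size factors the median was 0.23, with 7851 genes above and 3621 below. Both sets of factors lower the input against every sorted library, so that neither could end a call below, and a call below that held with them is no sign of stability. Differences are read here against the median shift of 0.65, and a list of genes is called higher or lower than the tested genes only where its median held its side of that shift. Each set of factors is 1 constant per library and moves a list and all tested genes together. A list median that held its side with other factors is therefore no separate support. The counts of each list are read against the 59.7% above and 5.33% below of all tested genes. With TMM factors these shares were 37.7% and 24.3%, and with DESeq2 size factors 41.4% and 19.1%.

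**Figure D1:**
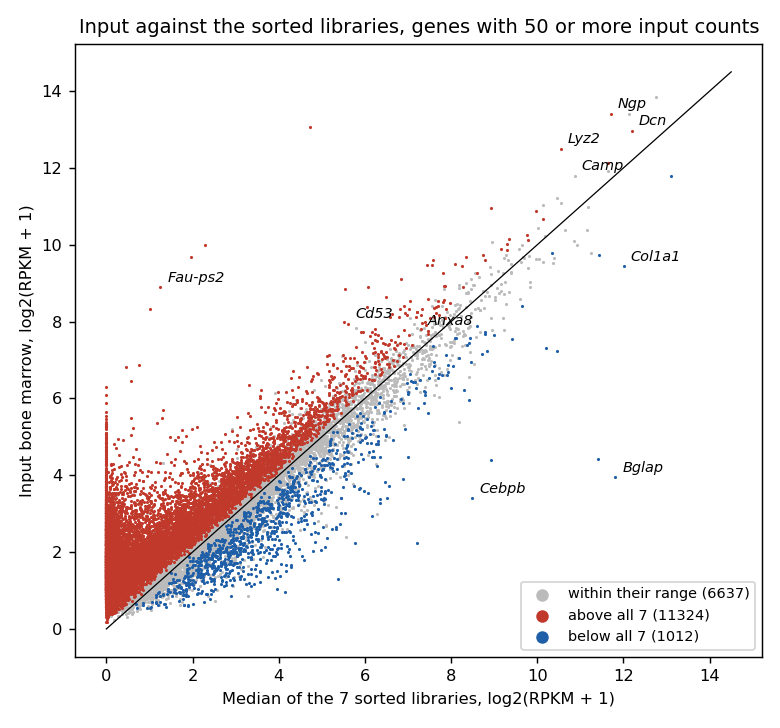
Level in the input against the median of the 7 sorted libraries for 18973 genes with 50 or more input counts, both as log2(RPKM + 1), with the line of equality. Points above the range of the sorted libraries (11324, red) lie along the whole left edge, where the sorted libraries have almost no counts, and points below (1012, blue) include Bglap, Cebpb and Col1a1.

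When a margin of more than 2-fold in RPKM + 1 beyond the nearest sorted library was asked for, 22.5% of the tested genes (4277) lay above and 0.654% (124) lay below. At the edge of the rule, Ctns had an RPKM of 6.08 in the input and of 6.08 in the highest sorted library and was called above, and Fbxo6 had 14.3 in both and was not. Elf2, called below, had 6.01 in the input and 6.01 in the lowest sorted library, and Jade2, with 0.365 against 0.364, was not called.

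Genes of bone-forming cells were lower in the input than in the sorted libraries. Of 24 genes listed for osteoblasts and osteocytes, 21 were tested, 12 lay below all 7 sorted libraries and none lay above. The share below was 57.1%, compared with 5.33% of all tested genes, and 18 lay below when cluster 1 was left out. The median difference of the 21 genes from the sorted median was -1.89 on the log2 scale. This median was -2.76 with TMM factors and -2.55 with DESeq2 size factors, and the summed RPKM of the list was 6190.0 in the input against 12483 to 61849 in the sorted libraries. The input therefore had less of this RNA than every sorted library. In these bulk libraries, fewer cells of a type and less RNA per cell cannot be told apart.

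Bglap and Bglap2 encode osteocalcin, a small protein that mature osteoblasts secrete into bone matrix. Bglap (ENSMUSG00000074483, chr3:88383501-88384464, GRCm38) had an RPKM of 14.48 in the input and of 262.0, 3584, 14326, 193, 8501, 11203 and 278 in clusters 1 to 7. The input lay 13.3-fold below cluster 4, the lowest sorted library (interval 11.5 to 15.5). The sorted libraries fell into a low set, clusters 1, 4 and 7, and a high set, clusters 2, 3, 5 and 6, and the input was under both. Bglap2 gave the same order of input and sorted libraries, with an RPKM of 20.3 in the input against 196 in cluster 4 and 10166 in cluster 3. The genes are near-identical neighbours on chromosome 3 and reads can be split between them, so that their separate values are uncertain, whereas both were low in the input.

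The promoter of Bglap is printed because Bglap, unlike the markers Camp and Anxa8, lay outside the range of the sorted libraries. The window covers 250 bases before to 50 bases after the start of the gene, at chr3:88384417-88384716 on the minus strand of GRCm38.p6 (RefSeq), 5′ to 3′. Capitals mark ACCACA, the letters at the centre of the sequence that RUNX factors bind, and TATAAA, searched on both strands. ACCACA was found in 16.8% and TATAAA in 13.6% of the 32851 promoters of the same length, so a match alone does not show a site. Whether either stretch is bound was not tested.
Bglap: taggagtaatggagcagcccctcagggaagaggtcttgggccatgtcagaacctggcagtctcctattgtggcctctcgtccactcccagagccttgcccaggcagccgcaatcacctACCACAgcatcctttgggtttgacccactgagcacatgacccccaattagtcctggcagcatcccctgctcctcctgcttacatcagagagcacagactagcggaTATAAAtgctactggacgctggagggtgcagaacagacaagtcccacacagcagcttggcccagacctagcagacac

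The other members of the list differed in size. Dmp1, a matrix protein of osteocytes, had an RPKM of 1.48 in the input against a lowest of 3.62 in cluster 1, a median of 40.4 and a highest of 421 in cluster 6. Alpl, the alkaline phosphatase of mineralising cells, had 13.1 in the input against 27.3 in cluster 1 and 410 in cluster 6. Both lay below the range of the sorted libraries, which itself spanned more than 1 order of magnitude. Runx2, the transcription factor that directs osteoblast formation, was called below at 2.04 against 2.11 in cluster 1, but the interval of this ratio (0.897 to 1.19) included 1. Spp1, which encodes osteopontin, had 742 in the input and was not called, since cluster 1 was lower still. Of the 3 members not tested, Bglap3 had 15 counts, Mepe 7 and Sost none in the input.

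The main collagens of bone and connective tissue were lower in the input as well. Of 24 genes for fibrillar collagen and matrix, 9 lay below all 7 sorted libraries (37.5%, compared with 5.33% of all tested genes) and none lay above. The median difference was -1.25. With TMM it was -1.95 and 18 lay below, where 24.3% of all tested genes did. Col1a1, a chain of type I collagen, had an RPKM of 692 in the input and of 1985 to 16200 in the sorted libraries, lowest in cluster 4 and highest in cluster 6. The input was 2.87-fold below cluster 4 (interval 2.85 to 2.89). Col1a2 was 2.39-fold and Sparc 1.31-fold below their lowest sorted libraries. Col1a1, Col1a2 and Sparc also stand in the osteoblast and osteocyte list, so the lists overlap. Col3a1, the type III collagen of soft tissue, had 887 in the input and was within the sorted range, because cluster 6 had 307 and cluster 2 had 742. Fmod, a collagen-binding proteoglycan, was within the range as well.

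Cartilage genes showed a wider spread among the sorted libraries. Of 16 genes listed for chondrocytes, 6 lay below all 7 (37.5%, compared with 5.33% of all tested genes), none lay above and the median difference was -0.81. The median lay between -1.95 and -1.87 when cluster 1, 3, 5 or 7 was left out, and it was -0.75 without cluster 2, 4 or 6. Without cluster 3, 9 lay below. Col2a1, the collagen of cartilage, had an RPKM of 76.0 in the input and of 137, 186, 198 and 253 in clusters 3, 7, 1 and 5. In clusters 4, 2 and 6 it reached 3082, 9718 and 10704. The input was thus 1.80-fold below its nearest library (interval 1.76 to 1.85) and far below the 3 libraries where cartilage collagen was high. Chad, Comp and Prg4, which encode secreted cartilage matrix proteins, were abundant in the input at 1391, 810 and 492 and lay within the sorted range.

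The 20 genes with a symbol that lay farthest below the sorted libraries were led by Cebpb, followed by Bglap and Bglap2. Cebpb, a transcription factor of myeloid, adipocyte and acute phase genes, is counted over 1504 bases at chr2:167688915-167690418 (GRCm38), a span that equals its exon length. It had an RPKM of 9.52 in the input and, in the order of cluster number, of 469.8, 311, 339.5, 656, 359.5, 223 and 599.7 in the sorted libraries. The sorted libraries agreed within a factor of 3, whereas the input was 23.4-fold below the lowest of them (interval 20.8 to 26.4). Its coding transcripts have a GC content of 67.2% and its promoter one of 80.7%, against a median of 54.3% and of 66.3% for the genes below, which is why its promoter is shown. The window of 300 bases lies at chr2:167688665-167688964 on the plus strand, with TATAAA in capitals, and held no ACCACA.
Cebpb: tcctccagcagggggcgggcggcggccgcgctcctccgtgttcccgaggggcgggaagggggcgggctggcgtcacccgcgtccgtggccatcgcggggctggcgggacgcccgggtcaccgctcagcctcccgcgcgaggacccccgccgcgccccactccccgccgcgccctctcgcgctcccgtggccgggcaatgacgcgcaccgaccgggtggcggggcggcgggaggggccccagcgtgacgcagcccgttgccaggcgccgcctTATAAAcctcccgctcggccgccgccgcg

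The remaining 17 of these 20 genes were not bone genes as a group. Cdk2ap1, an inhibitor that binds CDK2, had an RPKM of 3.13 in the input against 25.6 to 54.2, and Ckap4, a protein of the rough endoplasmic reticulum, had 14.1 against 90.5 to 307. Foxc1, a transcription factor of CXCL12-abundant reticular cells, had 2.47 in the input and 14.9 to 31.5 in the sorted libraries. The others included Dipk2a, Oaf, Csnk1g2, Eif4ebp2, Ube2m, P3h3, Mir6236, Scarf2, Lemd2, Spred1, Mtch1, Ryk and Crls1, each 4.47-fold to 7.09-fold below its lowest sorted library. Of these 17 genes, Mir6236 had exactly 50 counts in the input and ranged from 94.5 to 4539 in the sorted libraries, and only Foxc1 belonged to a cell type list.

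The position of the input moved with the GC content of the transcripts. Among 15050 tested coding genes with a GC value, 75.4% of the 631 genes with up to 40% GC lay above all 7 sorted libraries and 1.43% lay below. Of the 573 genes with more than 60% GC, 24.4% lay above and 20.4% lay below. The median GC content was 48.6% for genes above, 51.7% for genes within the range and 54.3% for genes below. Pearson's r of log2(RPKM + 1) with GC content across 12895 expressed coding genes was between 0.078 and 0.135 in the sorted libraries and -0.035 in the input. When every library was centred within 20 bins of GC content, the calls among coding genes changed from 7837 above and 993 below to 4086 above and 3664 below. This centring also removes the overall shift of the input, and the shift alone, with no GC term, gave 6168 above and 4943 below over all tested genes, so that the change of the split is not a measure of GC content. Whether GC content had a part in the difference of Cebpb or of any other gene was not tested.

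**Figure D2:**
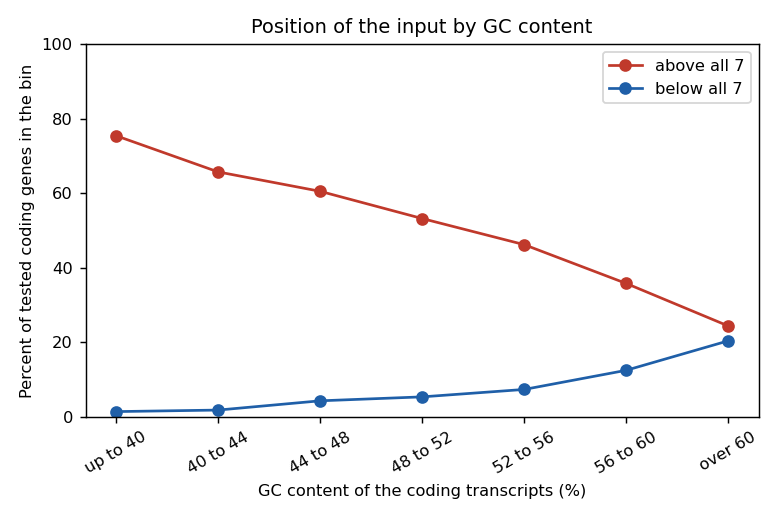
Percent of tested coding genes above (red) or below (blue) all 7 sorted libraries, by GC content of their coding transcripts in bins of 573 to 3309 genes. From the lowest to the highest bin the share above goes from 75.4% to 24.4% and the share below from 1.43% to 20.4%.

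Genes for ribosomal proteins were mostly within the sorted range, with a median under that of all tested genes. Of 82 tested genes for cytosolic ribosomal proteins, 14 lay below all 7 sorted libraries and 1 lay above, with a median difference of -0.76. The share below was 17.1%, compared with 5.33% of all tested genes, and the count rested on cluster 6, without which 35 lay below. With TMM factors 80 lay below and none above, and with GC bins centred 77 of 80 lay below. The share below was 24.3% of all tested genes with TMM and 24.3% of coding genes with GC bins centred. Their summed RPKM was 6444 in the input, against 5999 in the lowest sorted library and 23049 in the highest. Fau encodes a ribosomal protein as a fusion with a ubiquitin-like sequence, and its RPKM was 116 in the input and 77.9 to 395 in the sorted libraries. Its processed copy Fau-ps2 behaved otherwise, with 474 in the input and 0.327 to 13.7 in the sorted libraries. Reads of such copies can be assigned to either locus, so both values are uncertain.

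Leukocyte genes were higher in the input than in the sorted libraries. Of 15 genes expressed by leukocytes in general, 14 lay above all 7 sorted libraries, none lay below and the median difference was 1.60, compared with 0.65 over all tested genes. The median was 0.80 with TMM and 0.96 with DESeq2 size factors, compared with 0.10 and 0.23 over all tested genes. With these factors 5 and 6 members stayed above all 7. These counts do not exceed the 37.7% and 41.4% of all tested genes above with the same factors. The list summed to an RPKM of 3006 in the input and of 534 to 1880 in the sorted libraries. Cd53, a tetraspanin of leukocyte membranes, had 244 in the input and 26.8, 30.4, 20.7, 49.5, 47.97, 57.3 and 133 in clusters 1 to 7. The input was 1.84-fold above cluster 7 (interval 1.79 to 1.90) and several times above the other 6. Arhgdib, a regulator of small GTPases in blood cells, was 1.996-fold above cluster 7. Ptprc, which encodes CD45, had 13.5 in the input against 1.73 to 9.33, again with cluster 7 nearest. The transcript of a protein that the sort selected against was therefore counted in all 7 sorted libraries and was 1.45-fold higher in the input than in cluster 7 (interval 1.39 to 1.501), although Ptprc did not stay above cluster 7 with TMM or DESeq2 factors. Cd53 stayed above with both. Was, a regulator of actin in blood cells, was the member not called, at 3.22 against 1.32 to 6.93.

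Neutrophil genes were listed by the stage at which they are made, and the lists were not tested against each other. Primary granule genes are transcribed in promyelocytes, and those of secondary and tertiary granules later, in myelocytes and maturing neutrophils. All 9 primary granule genes lay above all 7 sorted libraries, with a median difference of 1.48, against 59.7% of all tested genes. With TMM 1 and with DESeq2 size factors 2 of the 9 stayed above, under the 37.7% and 41.4% of all tested genes. The list medians were 0.56 and 0.76, compared with 0.10 and 0.23 over all tested genes. Mpo, the myeloperoxidase of these granules, had an RPKM of 547 in the input and of 69.4, 76.8, 82.3, 119, 113, 297 and 397 in clusters 1 to 7. Clusters 6 and 7 stood apart from the other 5 and came nearest to the input, which was 1.38-fold above cluster 7 (interval 1.36 to 1.395) but not above it with TMM or DESeq2 factors. Elane, neutrophil elastase, had 778 in the input against 97.1 to 482 and was 1.62-fold above cluster 7.

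Of 20 genes for secondary and tertiary granules, 7 lay above all 7 sorted libraries, a share of 35.0%, and the median difference was 1.11. With TMM none stayed above and the median was 0.33. With the dropped loci, which were 40.04% of the counts of cluster 5, kept in the totals, 14 of the 20 lay above, against 63.2% of all tested genes with those totals. Camp, the cathelicidin stored in secondary granules, was within the sorted range, but lay above all 7 with the dropped loci kept in the totals. Its RPKM was 3556 in the input against 1427, 1891, 1311, 1867, 5153, 1492 and 2780 in clusters 1 to 7. The input was above 6 of the 7 libraries, and cluster 5 was above the input, which reached 0.690 of the level of cluster 5 (interval 0.680 to 0.700). S100a9 and S100a8, the subunits of calprotectin, lay under cluster 5 and above the other 6, with 14780 and 10823 in the input against 18401 and 13139 in cluster 5, and likewise lay above all 7 with those totals. Ngp, another granule protein, was above all 7 at 10867 against a highest of 6471 in cluster 7. Without cluster 5, 14 of the 20 genes lay above the other 6 libraries, and without cluster 7, 11 did.

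Of 13 surface genes of mature neutrophils, 7 (53.8%, compared with 59.7% of all tested genes) lay above all 7 sorted libraries. This count was 12 without cluster 7, 3 with TMM and 4 with DESeq2 factors. Il1b, the cytokine interleukin 1 beta, had an RPKM of 330.0 in the input against 20.7 to 189, and Clec4e, a lectin receptor for mycobacterial glycolipid, had 91.9 against 5.26 to 52.4. Trem1, a receptor that amplifies inflammation, was higher in cluster 7 (138) than in the input (86.4).

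Monocyte and macrophage genes did not move as a block. Of 20 tested, 11 (55.0%, compared with 59.7% of all tested genes) lay above all 7, 1 lay below and the median difference was 1.19. With TMM 5 lay above and 2 below, and without cluster 6 the count below was 2. Lyz2 had an RPKM of 5770 in the input and of 854, 1057, 541, 1883, 2028, 1489 and 3770 in clusters 1 to 7, so that the input was 1.53-fold above cluster 7 (interval 1.52 to 1.54), and did not exceed it with TMM. Ly6c2, the antigen of inflammatory monocytes, was 1.80-fold above cluster 7, but its near-identical neighbour Ly6c1 makes its reads uncertain. C1qb, a subunit of complement C1q, was called below at 3.88 against 3.89 to 16.2, a ratio whose interval (0.758 to 1.33) included 1.

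Among genes of dendritic cells and antigen presentation, 10 of 12 tested genes (83.3%, compared with 59.7% of all tested genes) lay above all 7, with a median difference of 1.41. With TMM and with DESeq2 factors 6 stayed above. Cd74, the invariant chain of MHC class II, had an RPKM of 395 in the input against 36.6 to 214. The class II genes H2-Ab1, H2-Aa and H2-Eb1 were 1.12-fold to 1.44-fold above cluster 7, but not above it with TMM or DESeq2 factors, and Bst2, an interferon-induced membrane protein, was within the sorted range at 22.5 against 7.64 to 46.7.

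B cell genes were higher in the input with few exceptions. Of 20 genes, 18 (compared with 59.7% of all tested genes) lay above all 7 sorted libraries and none below, with a median difference of 1.33. With TMM 12 and with GC bins centred 15 stayed above. Cd79a, a signalling chain of the B cell receptor, had an RPKM of 87.0 in the input and of 17.2, 25.8, 9.26, 21.6, 28.1, 30.4 and 40.2 in clusters 1 to 7. The input was 2.16-fold above cluster 7 (interval 2.04 to 2.30). Cd79b, the partner of Cd79a, was 2.64-fold and Ighm, the heavy chain of IgM, 1.63-fold above cluster 7. The members not called were Vpreb3, which was higher in cluster 2, and Ebf1, which stromal cells also express. Of 334 immunoglobulin variable segments 307 had fewer than 50 counts in the input, and the 27 tested passed through the library where they are high, so that their calls (26 above) are no support. The summed RPKM over all 334 segments was 783 in the input against 57.8 to 286. That of 914 olfactory receptor genes was raised as well, at 559 against 2.70 to 84.8, so a raised sum is not particular to B cell genes. These segments share sequence, so single segments are uncertain.

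All 15 tested genes of T cells and NK cells lay above all 7, compared with 59.7% of all tested genes, with a median difference of 1.34. Members with few counts elsewhere were tested only where the input was high, so this count is no support. Over all 18 members, tested or not, the median was 1.32. When 50 counts in any library sufficed, 15 lay above and 1 below, and with a minimum of 200 counts 4 lay above. Of the 15 genes, 11 stayed above with TMM, 8 with GC bins centred, and 7 each with the input shifted to a median of 0 and after thinning to the lowest total. Only 4 of the 15 exceeded an RPKM of 5.06. That value is the 99th percentile of 914 olfactory receptor genes in the input, which marrow is not known to use, and 66.96% of these genes had at least 3 counts there. Nkg7, a granule protein of cytotoxic cells that basophils and other cells also express, was the most abundant at 88.2 against 24.8 to 61.4. It did not stay above with TMM or DESeq2 factors. Cd3e, a chain of the T cell receptor complex, had 0.829 against 0.0739 to 0.319 and thus lay inside the range of the olfactory receptor genes. The part of such background counts in the T cell genes was not tested. After a background set from the olfactory receptor genes was subtracted, 12 of the 15 stayed above.

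The basophil and mast cell proteases were higher in the input, whereas genes of eosinophils differed among themselves. Prss34, a basophil protease, had an RPKM of 253 in the input and of 55.0, 74.3, 15.2, 44.9, 24.4, 35.6 and 86.4 in clusters 1 to 7. It was 2.93-fold above cluster 7 (interval 2.81 to 3.06). Mcpt8, another basophil protease, was 2.44-fold above cluster 2, and Cpa3, a carboxypeptidase of mast cells and basophils, 3.87-fold above cluster 7. These 3 genes stayed above with TMM and DESeq2 factors and with GC bins centred. Prg2, the major basic protein of eosinophils, lay below all 7, with 3.80 in the input and 13.8 to 106 in the sorted libraries, 3.64-fold below cluster 1 (interval 2.76 to 4.86). Il5ra and Siglecf, receptors of eosinophils, lay above all 7 at 1.29 against at most 0.400 and at 1.05 against at most 1.00, and Siglecf did not stay above with TMM. In the whole list 7 of 9 tested genes lay above and 1 lay below, with 6 further members under 50 counts. When 50 counts in any library sufficed, 8 members lay above and 3 below, against 56.4% and 6.06% of all genes tested in that way.

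**Figure D3:**
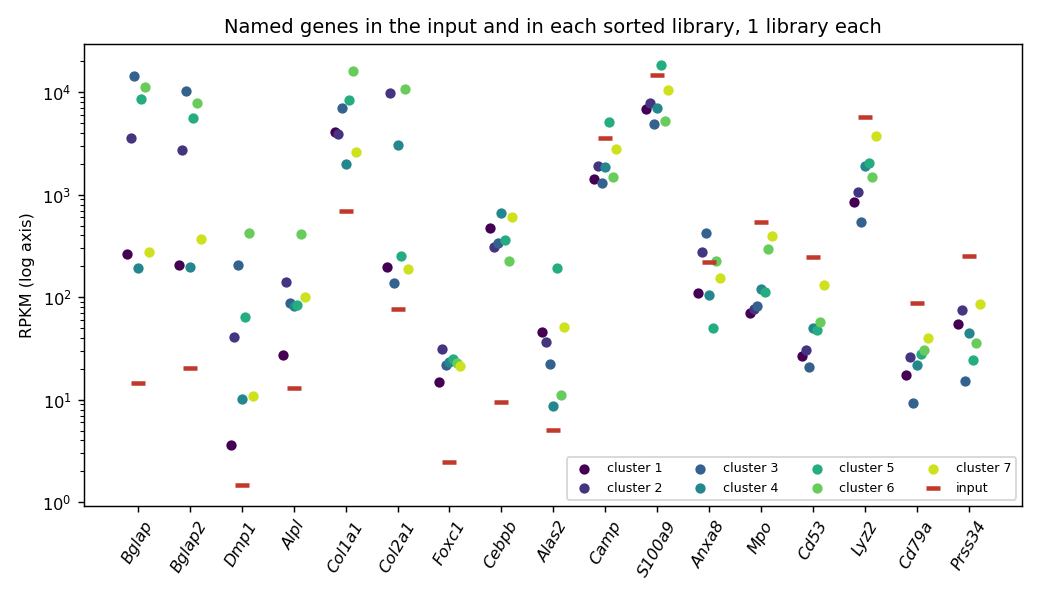
RPKM, on a log axis, of 17 named genes in the input (red bars) and in clusters 1 to 7 (points), 1 library each. The input lies under all points for the bone, cartilage and stromal genes from Bglap to Foxc1, for Cebpb and for Alas2, among the points for Camp, S100a9 and Anxa8, and over all points for Mpo, Cd53, Lyz2, Cd79a and Prss34.

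Red cell genes were not raised in the input, although the sorted populations had been selected as Ter119-negative. Haemoglobin genes had been dropped. Of 15 other erythroid genes tested, 2 lay above and 2 below all 7, the median difference was -0.18, and the list summed to 65.1 in the input against 45.2 to 576 in the sorted libraries. With TMM and with DESeq2 factors 2 lay above and 5 below, with medians of -0.64 and -0.57. When 50 counts in any library sufficed, 2 lay above and 5 below, and with GC bins centred 2 and 6. Without cluster 5, the sorted library with the most of this RNA, 5 lay above and the median was 0.02, which it also was without cluster 3. The study lysed red cells of its suspensions with water, and whether this was done for the input was not given. Alas2, which starts haem synthesis in red cells, had an RPKM of 5.11 in the input against 45.9, 36.9, 22.1, 8.72, 194, 11.2 and 51.6 in clusters 1 to 7. Cluster 5 was highest and cluster 4 was nearest to the input, at 1.71-fold (interval 1.47 to 1.98). Ank1, a gene above all 7, encodes a protein of the red cell skeleton and had 1.65, which is under the 99th percentile of the olfactory receptor genes. Of the 6 members not tested, Cldn13 had 2 and Klf1 had 9 counts.

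Genes of platelets and stem cells were near the background share or under it. In the megakaryocyte list 4 of 10 tested genes lay above and none below, and the median of 0.43 went to -0.06 with TMM. The median ranged from 0.28 without cluster 4 to 0.67 without cluster 5, and without cluster 6, 1 gene lay below. Among those above was Plek, a protein of platelet and leukocyte secretion, at 117 against 13.5 to 81.8. Plek did not stay above with TMM or DESeq2 factors or with GC bins centred. Pf4, a platelet chemokine, was within the range at 6.00 against 2.31 to 68.5. Among haematopoietic stem and progenitor genes 5 of 12 lay above and none stayed there with TMM. Cd34, a surface protein of progenitors, endothelium and fibroblasts, had 89.7 against 1.39 to 126. Osteoclast genes gave 3 of 9 above, none of them over the olfactory 99th percentile, and Ctsk, the collagen-degrading cathepsin K, had 197 in the input against 112 to 458.

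Stromal genes other than those of bone mostly lay within the sorted range. Of 18 adventitial fibroblast genes, 2 lay above (11.1%, compared with 59.7% of all tested genes) and none below. Their median difference was 0.60, close to that of all tested genes, and -0.15 with TMM. Without cluster 3 the count above was 5, and the median ranged from 0.24 to 0.97 as each sorted library was left out. Dcn had an RPKM of 8027 in the input against 1785 to 6478, and Tnmd, a tendon membrane protein, 319 against 5.43 to 236. With TMM neither stayed above. Ly6a, which encodes Sca-1, had 462 in the input and 608, 88.4, 952, 436, 145, 5.06 and 228 in clusters 1 to 7. Of 19 genes of CXCL12-abundant stroma, 3 lay above and 3 below (15.8% each, compared with 59.7% and 5.33% of all tested genes). The median difference was -0.42 (-0.71 to -0.10 as each sorted library was left out). With TMM and with DESeq2 factors 1 lay above and 4 below, with medians of -1.14 and -0.95. Igfbp5, an IGF-binding protein, was called below at 67.4 against 72.3 to 243. Cxcl12 itself, the chemokine that retains stem cells in the marrow, had 27.1 in the input and 5.12 to 141 in the sorted libraries. Hp, one of the genes above in this list, is also a granule gene of neutrophils and stands in that list too.

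Of 15 tested endothelial genes 5 lay above (33.3%, compared with 59.7% of all tested genes), but 1 of these had an RPKM over the olfactory 99th percentile. Pecam1, which encodes CD31 and marked cells that the sort removed, had 4.09 in the input and was within the range of 1.33 to 6.41, highest in cluster 5. Anxa8, a calcium-dependent phospholipid-binding protein, had 219 in the input against 110, 274, 418, 106, 50.3, 226 and 155 in clusters 1 to 7. Clusters 2, 3 and 6 were above the input and the other 4 were below it. Its difference from the sorted median was 0.49, and it turned to -0.27 with TMM and -0.05 with DESeq2 factors. In the list of 9 tested epithelial genes to which Anxa8 belonged, 6 (66.7%, compared with 59.7% of all tested genes) lay above, 1 of them over the olfactory 99th percentile. Of 12 annexins 11 were tested, 5 (45.5%) lay above and none below, and with TMM 2 lay above and 1 below, with a median of -0.27 in place of 0.51. Anxa1, an anti-inflammatory annexin, was the most abundant at 847 against 228 to 688, and did not stay above with TMM or DESeq2 factors.

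**Figure D4:**
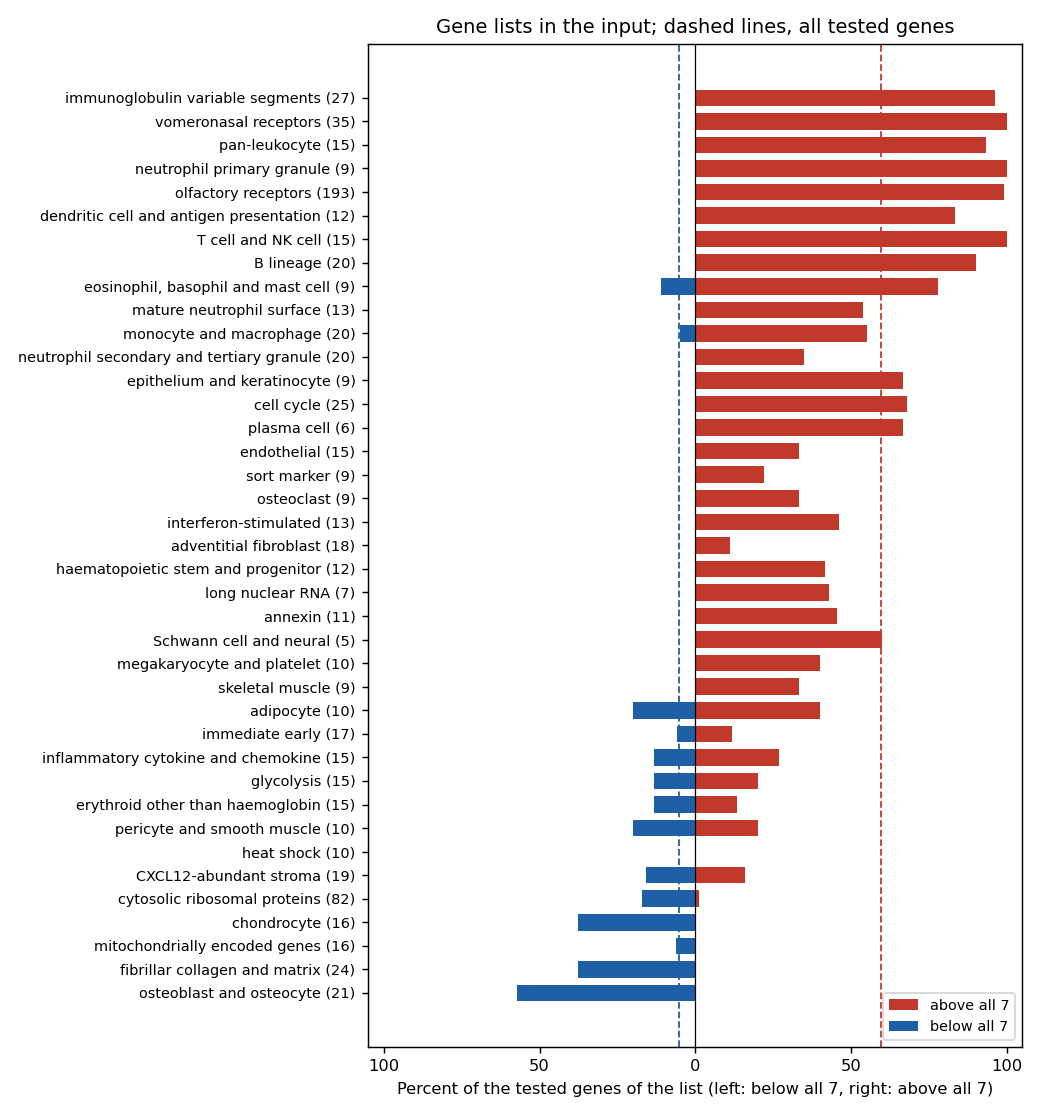
Percent of the tested genes of each list that lay above (red, right) or below (blue, left) all 7 sorted libraries, with the number tested in parentheses and lists of 5 or more tested genes ordered by median difference. Dashed lines mark all tested genes (59.7% above, 5.33% below). Lists past the line on the right run from plasma cell and epithelium (66.7%) and cell cycle (68.0%) to T cell and primary granule, where every tested gene lay above, with the Schwann cell list at the line, and the other neutrophil lists and the monocyte list stay under it. On the left the osteoblast list reaches 57.1% and the matrix and cartilage lists 37.5%, followed by adipocyte and pericyte (2 of 10 each), ribosomal protein (17.1%), CXCL12-abundant stroma (15.8%), erythroid, glycolysis and cytokine (13.3%), eosinophil, basophil and mast cell (11.1%), mitochondrially encoded (6.25%) and immediate early genes (5.88%).

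Genes of dividing cells gave 17 of 25 above (68.0%, compared with 59.7% of all tested genes), none below and a median difference of 0.88, which depended on the scaling. With TMM the split was 2 above and 2 below with a median of 0.11, close to that of all tested genes. Rrm2, a subunit of ribonucleotide reductase, had an RPKM of 70.8 against 16.7 to 37.9, and Pcna, the sliding clamp of DNA replication, 77.0 against 28.6 to 53.0. Genes of the response to tissue dissociation did not stand above the sorted range. The counts of this and the following lists stand against 59.7% above and 5.33% below of all tested genes. With TMM these shares were 37.7% and 24.3%. Of 17 tested immediate early genes 2 lay above and 1 below, 6 lay below and none above with TMM, and Fos, a subunit of AP-1, had 2357 in the input against 788 to 2672. None of 10 heat shock genes was outside the range of all 7 (1 was when cluster 1, 2, 3 or 6 was left out), the median difference was -0.27 (-0.16 without cluster 7), and Hspa8, a constitutive chaperone, had 469 against 263 to 628. With TMM 7 of these 10 lay below. Of 15 tested cytokine and chemokine genes 4 lay above and 2 below, with Cxcl1, which attracts neutrophils, at 425 against 28.9 to 1130.0. With TMM and with DESeq2 factors 2 lay above and 2 below, and their median of 0.16 went to -0.60 and -0.38. Of 15 glycolysis genes 3 lay above and 2 below, and with TMM 10 lay below. Gapdh, Aldoa and Pfkp, the 3 above, encode glycolytic enzymes and were 1.06-fold, 1.002-fold and 1.28-fold above their nearest library, and with TMM Gapdh and Aldoa lay below all 7. Of 13 interferon-stimulated genes 6 lay above (46.2%, under the 59.7% of all tested genes) and none below, and with TMM 2 lay above and 2 below. The most abundant in the input was Usp18, which removes ISG15 from proteins, at 11.9 against 0.552 to 3.27. Isg15 itself had 7.89 against 3.22 to 62.9.

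Of the plasma cell genes 4 of 6 lay above (66.7%, compared with 59.7% of all tested genes), and with TMM 2 lay above and 1 below with a median of 0.01. Xbp1, a transcription factor of secretory cells, had an RPKM of 89.7 against 63.4 to 98.9 and lay below all 7 with TMM. Adipocyte genes split into 4 above and 2 below of 10, with a median of 0.31 that was -0.34 with TMM and 0.17 to 0.63 as each sorted library was left out, and genes of pericytes and smooth muscle into 2 above and 2 below of 10. With TMM and with DESeq2 factors 0 genes of the pericyte list lay above and 2 below. The summed RPKM of that list was 45.83 in the input against 51.25 to 131.3 in the sorted libraries. Of 5 Schwann cell and neural genes 3 lay above, a share near the 59.7% of all tested genes, and with TMM 1 lay above and 2 below. The most abundant was Pmp22, a myelin protein that fibroblasts also express, at 325 against 85.8 to 242. Among 7 long nuclear RNAs 3 lay above, 1 of them over the olfactory 99th percentile. With TMM 0 stayed above and with DESeq2 factors 2 did. Malat1, a nuclear speckle RNA, had 382 against 169 to 1716. Of 16 mitochondrially encoded genes none lay above and 1 lay below, with a median of -0.87.

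**Figure D5:**
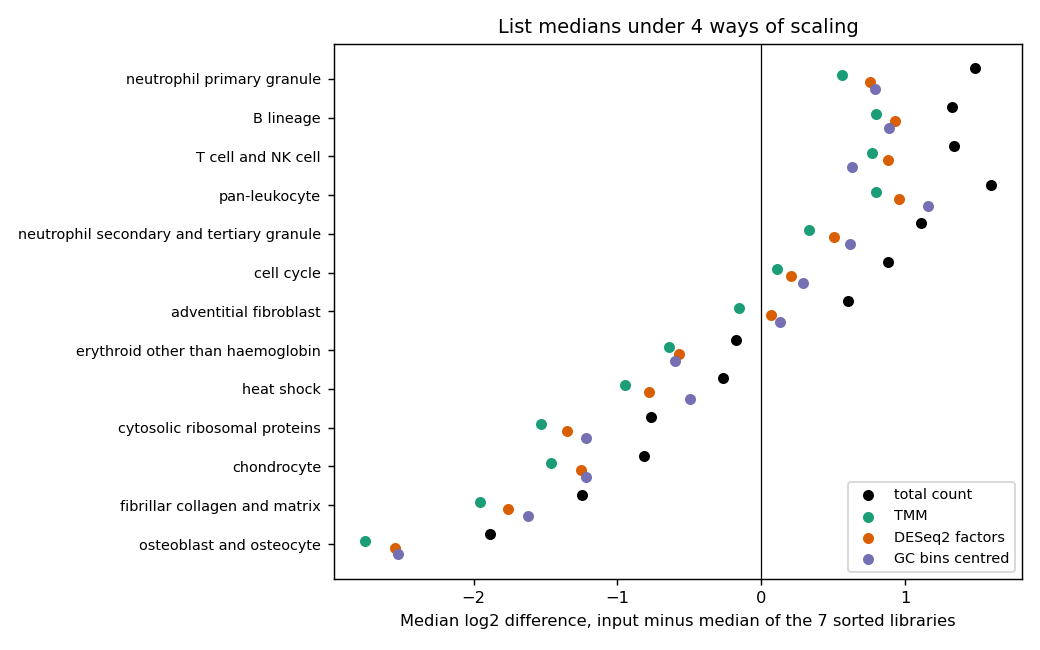
Median log2 difference between the input and the median of the 7 sorted libraries for 13 lists of genes, after scaling by total count, TMM factors or DESeq2 size factors, or after centring within GC bins. Osteoblast, matrix, cartilage and ribosomal protein lists lie left of 0 and the leukocyte and neutrophil lists right of 0 under each scaling, whereas the adventitial fibroblast list crosses 0 with TMM.

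The genes with the largest distance above the sorted libraries were mostly small RNA genes and pseudogenes. The 20 with a symbol comprised 5 miRNA genes, 9 pseudogenes, 2 snRNA genes and 2 genes known by a clone name, an immunoglobulin segment and 1 protein-coding gene, Wfdc9. For 10 of them all 7 sorted libraries had no counts. Mir6412 (chr10:122648339-122648435) had 114 counts and an RPKM of 58.4 in the input, at least 14.54-fold higher than 3 counts in the shallowest sorted library would give. Gm44419 had 86.0 against at most 0.9503, and Vmn2r-ps20, a pseudogene of a pheromone receptor, 30.6 against at most 0.197. The others included AC130536.1, Mir195b, Gm23148, Gm13172, Gm19566, Mir8091, Mir6390, Defa-ps12, AC141566.1, Gm11334, Gm13787, Mir6399, Ighv1-25, Gm23002 and, with the highest level of all, Fau-ps2.

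The reads on these miRNA genes were counted over precursors of 84 to 139 bases in libraries of long RNA, so they do not measure the mature forms. The mature sequences are shown to identify the 5 genes above and Mir6236, the only miRNA gene among the 20 below (RefSeq, GRCm38.p6, 5′ to 3′). Capitals mark the seed, bases 2 to 8. The 6 seeds differ from each other.
miR-6412: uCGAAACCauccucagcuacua
miR-195b: uAGCAGCAcagaaauaguagaa
miR-8091: aGGAGUGAgugguaagcuggug
miR-6390: gAAUUGAUcaggauguaacca
miR-6399: uUGCAAUGaugguauucugagg
miR-6236: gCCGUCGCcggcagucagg

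Tested genes of other kinds lay above more often than tested coding genes. The minimum of 50 counts applied to the input alone, so genes with almost no counts elsewhere entered only where the input was high. Of 15025 tested coding genes 7814 lay above, compared with 83.1% of 581 pseudogenes, 82.6% of 241 lincRNA genes and 21 of 23 snoRNA genes. For that reason the 191 of 193 tested olfactory receptor genes and the 35 of 35 tested vomeronasal receptor genes above are no finding, since 721 of 914 and 306 of 341 were not tested. The summed RPKM of all 914 olfactory genes was 559 in the input against 2.70 to 84.8 in the sorted libraries. Gm10800 had 112730 counts in the input, which is 0.560% of all counts, against 0.000519% to 0.0418% in the sorted libraries. Of the 11324 genes above, 7231 had an RPKM at or under the olfactory 99th percentile of 5.06. Genes of tissues that marrow does not hold were among them. Alb, the albumin of liver, had 1.78 against at most 0.167, and Ttn, the giant protein of muscle, 0.949 against at most 0.0946. Acta1, the actin of skeletal muscle, was within the range with 7.06 in the input against 1.01 to 78.5. The leukocyte genes described by their values in each library, from Cd53 to Prss34, had levels of 87.0 or more in the input. Other leukocyte genes called above did not all exceed 5.06. All did in the pan-leukocyte list and the neutrophil lists. In the B cell list 13 of 18 did, in the monocyte list 8 of 11 and in the dendritic cell list 6 of 10. In the eosinophil, basophil and mast cell list 4 of 7 did, and in the T and NK cell list 4 of 15. The part of background in these counts was not tested.

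Of the genes behind the sort or examined as surface markers, Il1r2, which encodes CD121b, and Ptprc lay above all 7 libraries, and Cd24a, Entpd1 (CD39), Icam1 (CD54), Ly6a, Ly6c1, Pecam1 and Pdgfra lay within their range. Il1r2 had 202 against 22.4 to 179 and did not stay above with TMM. The 4 tested genes of the Y chromosome, Ddx3y, Eif2s3y, Kdm5d and Uty, lay above all 7 with differences of 0.34, 0.46, 0.44 and 0.71 from the sorted median, set against a shift of 0.65 for all tested genes, and none of them stayed above with TMM. Xist, which is transcribed from the inactive X chromosome, had no counts in the input.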

How the data were processed

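RNA-seq libraries of 7 sorted bone marrow populations and of input bone marrow were analysed, with 1 library each. The authors deposited raw counts of reads on the exons of each Ensembl gene with the exon length. The submitters' processing notes name Partek 2.2, TopHat2 and mm9, whereas 96.2% of 23289 symbols started within 10 kb of their GRCm38.p6 position. The counting tool, strand setting and treatment of shared reads are not given in the sources used here. RPKM was computed from counts and length with the total that remained after the named loci were dropped, and a pseudocount of 1 was added before log2. Symbols were found for 35962 of 49315 genes in a name table and RefSeq. GC content came from the coding transcripts of NCBIM37 by gene ID.

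The members, the 36 gene lists (524 of 526 genes matched) and the rule for named genes were chosen with earlier results of these data known. Named genes were the 20 farthest above and the 20 farthest below the sorted libraries, Camp, Anxa8 and Bglap, and the most abundant 2 to 4 of each list in the input and in the sorted libraries. Dmp1, Alpl, Runx2, Gsn, Il1r2, Alb, Pecam1, Ptprc, Was, C1qb, Cd3e, Il5ra, Siglecf, Cxcl12, Ank1, Ttn, Gm10800, Fau, the exceptions and untested members of lists were named after their values had been seen. edgeR and DESeq2 gave scaling factors only, with no test, because there were no replicates. The code that makes the calls was checked on simulated counts, which is no test of these libraries. Some members of lists are not reported here. Alternatives were other scalings, pseudocounts and count minima, a fold margin, thinning, subtraction of the olfactory background and leaving out each sorted library. The median shift, the olfactory 99th percentile, the counting interval and the GC bins were added after seeing the data. The software comprised edgeR 4.0.16 and DESeq2 1.42.0 in R 4.3.3, and scipy 1.17.1, pandas 2.3.3, numpy 2.4.6 and matplotlib 3.10.9 in Python 3.11.15.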

Additional observations from a re-analysis of the deposited data

Results flagged for a closer look

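The minimum of 50 counts in the input left out genes that were low there and present in every sorted library. Of 49 genes with fewer than 50 counts in the input and 50 or more in all 7 sorted libraries, 42 had an input level below all 7. The choice asked for low input counts and for more in every sorted library. It thus largely fixed this count, which is no finding. The genes are listed because the comparison did not use them. The largest distance was that of Pkdcc, a secreted kinase of skeletal development, with an RPKM of 0.770 in the input against 4.79 to 40.8 in the sorted libraries. Tmem200b had 1.13 against 5.69 to 29.9, and Sav1, a scaffold of the Hippo pathway, 0.906 against 4.64 to 9.45. The median GC content of the 36 of these genes with a value was 57.7%, and its part in these differences was not tested.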

How the results depend on the processing

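No paired analysis was possible because the groups held 1 library apiece. Against 11324 genes above and 1012 below, TMM factors gave 7155 and 4605, DESeq2 size factors 3621 below, and the total with the dropped loci kept 641 below. A minimum of 10 counts gave 18977 above, 200 counts 5470 above, a margin of 2-fold 4277 and 124, and libraries thinned to 7695179 counts 6899 above. Subtraction of the olfactory background gave 1882 below. Leaving out each sorted library in turn gave 11406 to 11804 above and 1054 to 1377 below, the highest count below being that without cluster 6. Among alternatives chosen after seeing the data, an input shifted so that the median gene did not differ gave 6168 above and 4943 below, genes over the olfactory 99th percentile gave 4093 above and 475 below, and a counting interval that excluded 1 kept 714 below. Of the called genes named here, the log2 difference from the sorted median changed sign for glycolytic and Y chromosome genes, Pmp22 and Siglecf. With TMM it was -0.005 for Pmp22, -0.15 for Pfkp, -0.64 for Aldoa, -0.47 for Gapdh, -0.31 for Ddx3y and -0.078 for Eif2s3y, with DESeq2 factors -0.42 for Aldoa, -0.31 for Gapdh and -0.16 for Ddx3y, and with the olfactory background subtracted -0.07 for Kdm5d. With the shifted input it was -0.096 for Siglecf, -0.36 for Aldoa, -0.37 for Gapdh, -0.31 for Ddx3y, -0.19 for Eif2s3y and -0.21 for Kdm5d. With GC bins centred it was -0.016 for Aldoa, -0.10 for Gapdh, -0.50 for Ddx3y, -0.23 for Eif2s3y, -0.26 for Kdm5d and -0.05 for Uty. The cause was not tested. Depth limits genes near 50 counts, and with 1 library a population the spread between animals is unknown.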
